A study of Mus musculus with 12 samples.

Results

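Osteoclasts, the multinucleate cells that dissolve bone, form when macrophage precursors receive M-CSF and the cytokine RANKL, which binds the receptor RANK. RANK signals through NF-kB, AP-1 and calcium to the transcription factor NFATc1, which switches on genes of cell fusion, acid secretion and matrix digestion. Macrophages in other tissues use part of the same set, for fusion into giant cells and for digestion in lysosomes. This account covers 9 genes of that programme, chosen by name: the receptor gene Tnfrsf11a, the regulator Nfatc1, the receptors Oscar and Calcr, the fusion genes Dcstamp, Ocstamp and Atp6v0d2, and the resorption genes Acp5 and Ctsk. They are 9 of the 55604 genes counted in each library, and all were matched by gene identifier. Of these, 7 passed the filter on low counts and were tested, while Oscar and Calcr did not.

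RNA was sequenced from 12 libraries of C57BL/6 mouse bone marrow-derived macrophages, in 3 groups of 4. The first group was cultured with corpses of B16-F10 melanoma cells labelled STC1OE, the second with control B16-F10 corpses, and the third was macrophages alone. All 3 groups shared the strain, growth from marrow in M-CSF at 20 ng/ml with part of the medium replaced every 3 days, and collection on day 7; the labels name no RANKL. Corpses were given at a ratio of 1 to 5 for 20 h before those not bound were washed off. The labels give no such culture time for macrophages alone. In comparisons with that group, corpses therefore cannot be told apart from added culture or handling. STC1 is stanniocalcin 1, a secreted glycoprotein; the corpses come from 1 melanoma line, and the sources used here do not say how it was modified, how the cells were killed or how many mice gave marrow. The series' design text calls the 4 libraries of a condition independent experiments.

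Counts assigned to genes were 28488441 to 39981074 per library, and 16406 genes were tested. Levels are CPM, read counts per library size scaled with TMM factors, and fold changes are on the log2 scale with their standard error. A gene is called higher or lower at an adjusted p under 0.05 by edgeR's quasi-likelihood test with Benjamini-Hochberg adjustment over all genes tested. Stc1 itself had 17 counts in total with STC1OE corpses and 5 in each of the other groups. Macrophage markers were abundant in every library: the 8 markers summed to 13094 to 14221 CPM with STC1OE corpses, 13210 to 14886 CPM with control corpses and 15558 to 16438 CPM in macrophages alone, and 3 of them were called higher and 5 lower with either corpse. The 12 melanocyte markers, genes of the lineage of the corpses, summed to 6.26 to 7.25 CPM with STC1OE corpses, 12.5 to 16.5 CPM with control corpses and 2.19 to 2.57 CPM in macrophages alone. Of the 8 melanocyte markers tested, 7 were called higher with STC1OE corpses and 8 with control corpses than in macrophages alone, and 6 lower with STC1OE than with control corpses. Gpr143 was at 0 with STC1OE corpses, and Tyr, Oca2 and Gpr143 were at 0 in macrophages alone. The 11 osteoblast and stromal markers summed to 25.9 to 28.1, 25.4 to 30.2 and 31.9 to 40.3 CPM in the same order. The collagen gene Col1a1 was at 6.84 to 13.1 CPM over the 12 libraries, while the osteoblast gene Bglap2 was at 0 in all 3 groups. Of the 4 tested, 0 were called higher and 3 lower with STC1OE corpses than in macrophages alone. With control corpses 1 was called higher and 3 lower, and between the corpse groups 1 was lower with STC1OE corpses. The part of these cells in the results below was not tested. In such bulk RNA, fewer cells of a type and less RNA per cell cannot be told apart.

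With both kinds of corpse, members differed from macrophages alone in 2 directions. With STC1OE corpses, against macrophages alone, Acp5, Ctsk and Atp6v0d2 rose while Dcstamp, Ocstamp, Tnfrsf11a and Nfatc1 fell, so that 7 of 7 tested members were called. Of all genes tested, 43.8% were called, 21.4% higher and 22.4% lower. With control corpses the same 3 members were called higher and the same 4 lower, where 40.1% of all genes tested were called, 19.7% higher and 20.5% lower. The 2 comparisons share the libraries of macrophages alone and are not independent. Between the corpse groups 1 member was called, Dcstamp, which was lower with STC1OE corpses. Of all genes tested 5.44% were called there, 3.33% higher and 2.12% lower. A called gene had moved 1.22-fold at the median with STC1OE corpses and 1.21-fold with control corpses, and apart from Dcstamp and Acp5 the tested members moved 1.09-fold to 1.56-fold in these comparisons.

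**Figure D1:**
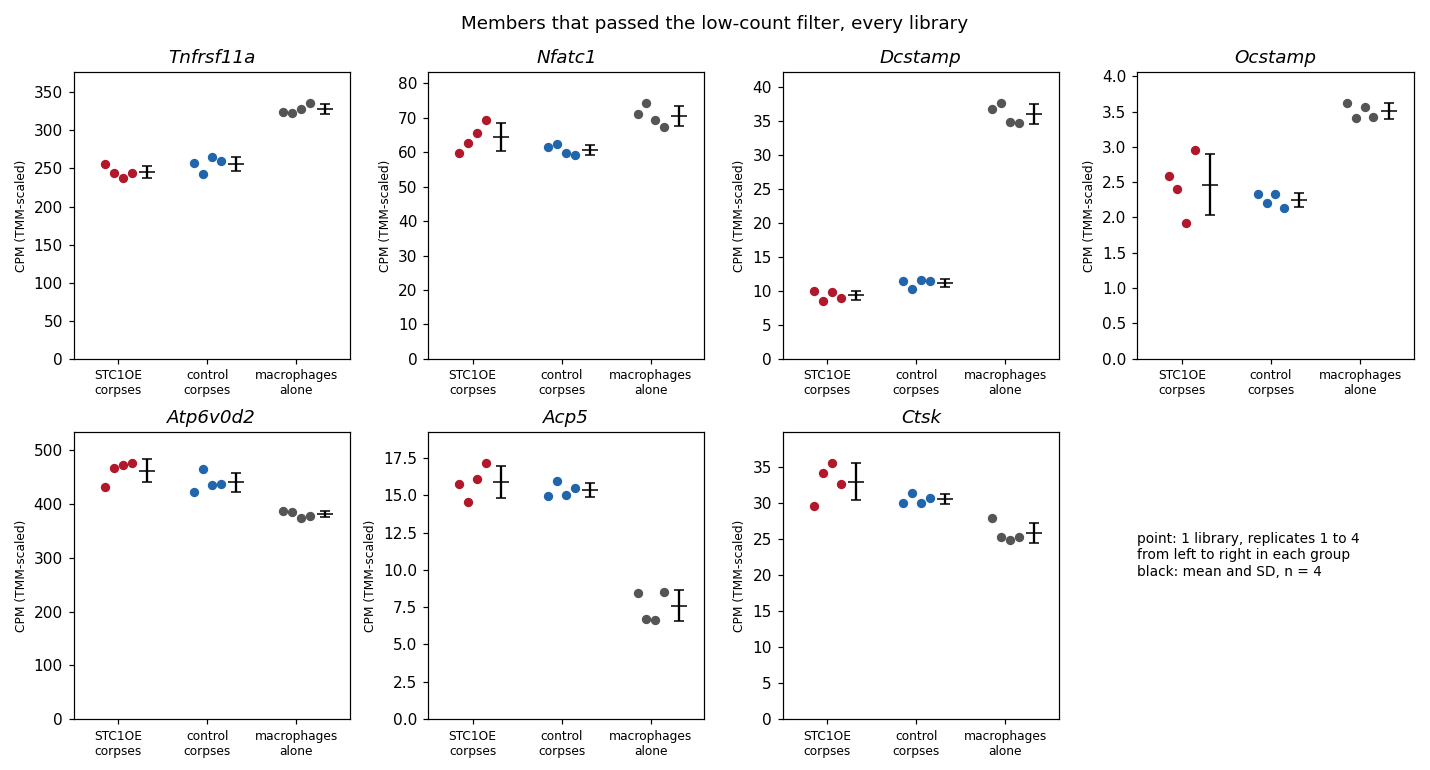
Level of each tested member in TMM-scaled CPM on a linear axis from 0, with 1 point per library (STC1OE corpses, control corpses, macrophages alone from left to right) and the mean with SD in black (n = 4). Dcstamp at 8.56 to 9.997 CPM with STC1OE corpses and 10.2 to 11.6 CPM with control corpses lies far below its 34.6 to 37.7 CPM in macrophages alone, and Acp5 lies at 6.64 to 8.54 CPM in macrophages alone, below both corpse groups.

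Levels of different genes are compared per kilobase of exon, as CPM per kb. The length is that of all annotated exons of a gene together, so ranks can depend on which transcripts are expressed. Atp6v0d2 was the most abundant member, at 170.2 ± 7.59 CPM per kb with STC1OE corpses, 162.2 ± 6.68 CPM per kb with control corpses and 140.4 ± 2.18 CPM per kb in macrophages alone (SD, n = 4), which in macrophages alone placed it above 98.2% of tested genes. Tnfrsf11a followed, at 41.0 ± 1.27, 42.8 ± 1.53 and 54.8 ± 1.02 CPM per kb in the same order, and then Ctsk at 21.8 ± 1.71, 20.2 ± 0.446 and 17.1 ± 0.932. The next places changed with the corpses. In macrophages alone Dcstamp (13.5 ± 0.56 CPM per kb) stood above Nfatc1 (9.45 ± 0.403) and Acp5 (3.74 ± 0.516). With STC1OE corpses Nfatc1 (8.62 ± 0.547) and Acp5 (7.82 ± 0.537) stood above Dcstamp (3.50 ± 0.257), and the same order held with control corpses, at 8.14 ± 0.199, 7.57 ± 0.237 and 4.19 ± 0.239 CPM per kb. Nfatc1 and Acp5 with STC1OE corpses differed by less than the sum of their SDs. Ocstamp was the lowest tested member in every group, at 0.675 ± 0.118, 0.615 ± 0.0273 and 0.958 ± 0.0301 CPM per kb. Among the tested genes Dcstamp ranked above 54.9% with STC1OE corpses and 58.4% with control corpses, against 81.9% in macrophages alone.

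**Figure D2:**
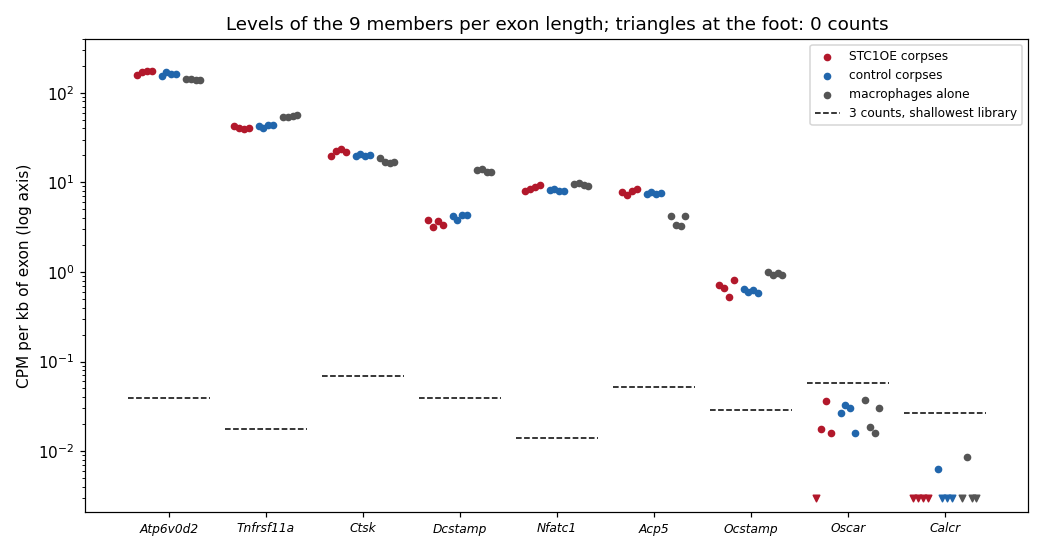
Level of each of the 9 members per kilobase of exon (CPM per kb, log axis), 1 point per library, with STC1OE corpses, control corpses and macrophages alone from left to right within a gene; the dashed line marks 3 counts in the shallowest library and triangles at the foot mark 0 counts. Atp6v0d2 is highest at 140.4 to 170.2 CPM per kb in the group means, while every Oscar and Calcr point lies below the dashed line.

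Tnfrsf11a encodes RANK, the receptor for RANKL, and lies on chromosome 1 (105780718 to 105847981, plus strand, GRCm38; ENSMUSG00000026321.7). It was at 256, 244, 238 and 243 CPM in the libraries with STC1OE corpses, at 257, 243, 265 and 259 CPM with control corpses, and at 325, 323, 328 and 336 CPM in macrophages alone. Every corpse library was below every library of macrophages alone, and the corpse groups overlapped. It fell by 0.42 ± 0.03 on the log2 scale with STC1OE corpses (adjusted p = 6.5e-14 by edgeR) and by 0.36 ± 0.03 with control corpses (3.29e-12). STC1OE against control corpses gave a log2 fold change of −0.06, with a 95% interval of −0.12 to −0.01 before adjustment and an adjusted p of 0.200 by edgeR. Its ligand gene Tnfsf11 had 4 counts in total with STC1OE corpses and 1 with control corpses, and none in macrophages alone, and Tnfrsf11b, the gene of the decoy receptor osteoprotegerin, had 8, 8 and 11.

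Nfatc1, the regulator that acts downstream of RANK, lies on chromosome 18 (80606205 to 80713071, minus strand; ENSMUSG00000033016.15). It was at 59.8, 62.7, 65.7 and 69.4 CPM with STC1OE corpses, at 61.6, 62.5, 59.7 and 59.3 CPM with control corpses, and at 71.1, 74.4, 69.4 and 67.3 CPM in macrophages alone. The control corpse libraries were all below macrophages alone, whereas 1 STC1OE library lay among them. The log2 fold change was −0.13 ± 0.04 with STC1OE corpses (adjusted p = 0.00662 by edgeR) and −0.21 ± 0.04 with control corpses (3.6e-05). Without replicate 1 of the STC1OE group the first call was lost, at −0.09 (adjusted p = 0.0686 by edgeR), and with replicates 3 and 4 of each group only it was −0.02 (adjusted p = 0.775 by edgeR). Set against control corpses, STC1OE corpses gave 0.08, with an interval of 0.00 to 0.16, and was not called (adjusted p = 0.226 by edgeR).

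Oscar, a collagen receptor that pairs with the adaptor FcRgamma to costimulate osteoclast precursors, and Calcr, the calcitonin receptor of mature osteoclasts, were close to absent. Oscar (chromosome 7, 3609813 to 3616157, minus strand; ENSMUSG00000054594.13) had 0, 1, 2 and 1 counts with STC1OE corpses, 2, 2, 2 and 1 with control corpses, and 2, 1, 1 and 2 in macrophages alone. Calcr (chromosome 6, 3685680 to 3764714, minus strand; ENSMUSG00000023964.15) had 0 counts in 10 of 12 libraries, with 1 count in replicate 1 of the control corpse group and 1 in replicate 2 of macrophages alone. No library reached 3 counts of either, so no test was made. A count of 0 allows up to 0.075 CPM in the deepest library and 0.105 CPM in the shallowest, which covers counting error only, and no difference between groups was detectable at this depth. Trem2, another immune receptor of osteoclast precursors and macrophages, was also near that limit with 10, 15 and 10 counts in total, whereas its adaptor gene Tyrobp was at 442 ± 11, 440 ± 7.5 and 468 ± 4.8 CPM with STC1OE corpses, control corpses and in macrophages alone. Overlap with other genes was looked up for the members only, so a low count of Trem2 need not mean a low level.

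Dcstamp encodes DC-STAMP, a multipass membrane protein required for fusion of osteoclasts and of foreign body giant cells, and lies on chromosome 15 (39745930 to 39760938, plus strand; ENSMUSG00000022303.9). It was at 9.997, 8.56, 9.80 and 8.95 CPM with STC1OE corpses, at 11.4, 10.2, 11.6 and 11.5 CPM with control corpses, and at 36.7, 37.7, 34.8 and 34.6 CPM in macrophages alone. The 3 groups did not overlap. It fell 3.85-fold with STC1OE corpses (−1.94 ± 0.05 on the log2 scale, adjusted p = 6.71e-23 by edgeR) and 3.22-fold with control corpses (−1.69 ± 0.05, adjusted p = 1.21e-21). Between the corpse groups it was lower with STC1OE corpses by 0.26 ± 0.06 on the log2 scale (log2 fold change −0.26, 95% interval −0.38 to −0.13, adjusted p = 0.00917 by edgeR). That call was lost without replicate 4 of the STC1OE group, at −0.22 (adjusted p = 0.0537 by edgeR), and with replicates 1 and 2 of each group only, at −0.22 (adjusted p = 0.519); with replicates 3 and 4 only it was −0.30 (adjusted p = 0.00709). The melanocyte sum given above was also lower with STC1OE corpses, and its part in this difference was not tested.

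Ocstamp, whose product acts with DC-STAMP in fusion, lies on chromosome 2 (165393760 to 165400405, minus strand; ENSMUSG00000027670.4). It was at 2.59, 2.40, 1.92 and 2.95 CPM with STC1OE corpses, at 2.34, 2.20, 2.33 and 2.13 CPM with control corpses, and at 3.63, 3.40, 3.57 and 3.42 CPM in macrophages alone. Every corpse library was lower than every library of macrophages alone, and the STC1OE libraries spread widest. It fell by 0.50 ± 0.12 on the log2 scale with STC1OE corpses (adjusted p = 0.00103 by edgeR) and by 0.64 ± 0.12 with control corpses (6.64e-05). Of the 2 corpse groups, STC1OE over control gave 0.14, with an interval of −0.12 to 0.39 (adjusted p = 0.608 by edgeR); the corpse groups held 316 and 321 counts of the gene, and the interval holds differences of either sign.

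Atp6v0d2, the d2 subunit of the proton pump V-ATPase, is needed for fusion of osteoclast precursors in mice and lies on chromosome 4 (19876841 to 19922605, minus strand; ENSMUSG00000028238.6). It was at 432, 467, 474 and 477 CPM with STC1OE corpses, at 422, 466, 436 and 438 CPM with control corpses, and at 387, 386, 375 and 378 CPM in macrophages alone. All corpse libraries were above all libraries of macrophages alone. Unlike Dcstamp and Ocstamp, it rose, by 0.28 ± 0.03 on the log2 scale with STC1OE corpses (adjusted p = 8.06e-09 by edgeR) and by 0.21 ± 0.03 with control corpses (1.53e-06). The corpse groups overlapped, and STC1OE over control corpses gave 0.07, with an interval of 0.01 to 0.13 before adjustment. This difference was not called (adjusted p = 0.185 by edgeR). Atp6v0d1, the d1 subunit found in most cells, rose by 0.58 ± 0.03 with STC1OE corpses (adjusted p = 9e-17 by edgeR) and by 0.46 ± 0.03 with control corpses (2.47e-14). Per kb, the ratio of d2 to d1 averaged 1.54 ± 0.0388 with STC1OE corpses and 1.59 ± 0.0536 with control corpses, against 1.90 ± 0.0513 in macrophages alone (SD, n = 4). The ratio was lower in all 8 corpse libraries (1.49 to 1.58 and 1.52 to 1.65) than in macrophages alone (1.83 to 1.95).

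Acp5 encodes tartrate-resistant acid phosphatase, the classical stain of osteoclasts, and lies on chromosome 9 (22126727 to 22135711, minus strand; ENSMUSG00000001348.15). It was at 15.7, 14.5, 16.1 and 17.2 CPM with STC1OE corpses, at 14.9, 15.98, 15.05 and 15.5 CPM with control corpses, and at 8.46, 6.74, 6.64 and 8.54 CPM in macrophages alone. The corpse groups overlapped each other and stood clear of macrophages alone. It rose 2.09-fold with STC1OE corpses (1.06 ± 0.07 on the log2 scale, adjusted p = 4.32e-13 by edgeR) and 2.02-fold with control corpses (adjusted p = 1.42e-12). For STC1OE over control corpses the value was 0.05, with an interval of −0.09 to 0.19 (adjusted p = 0.756 by edgeR). One gene on the opposite strand, 6530413G14Rik, overlaps Acp5 and had 35 counts over the 12 libraries; the sources used here do not say whether counting used strand.

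Ctsk encodes cathepsin K, the protease that digests bone collagen, and lies on chromosome 3 (95499256 to 95509362, plus strand; ENSMUSG00000028111.4). It was at 29.6, 34.2, 35.6 and 32.7 CPM with STC1OE corpses, at 30.1, 31.5, 30.0 and 30.7 CPM with control corpses, and at 27.9, 25.3, 24.9 and 25.3 CPM in macrophages alone. All corpse libraries were above macrophages alone, by a smaller margin than for Acp5. It rose by 0.35 ± 0.05 on the log2 scale with STC1OE corpses (adjusted p = 4.28e-07 by edgeR) and by 0.24 ± 0.05 with control corpses (0.000123). STC1OE over control corpses gave 0.11, with an interval of 0.01 to 0.21 before adjustment, and was not called (adjusted p = 0.185 by edgeR).

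**Figure D3:**
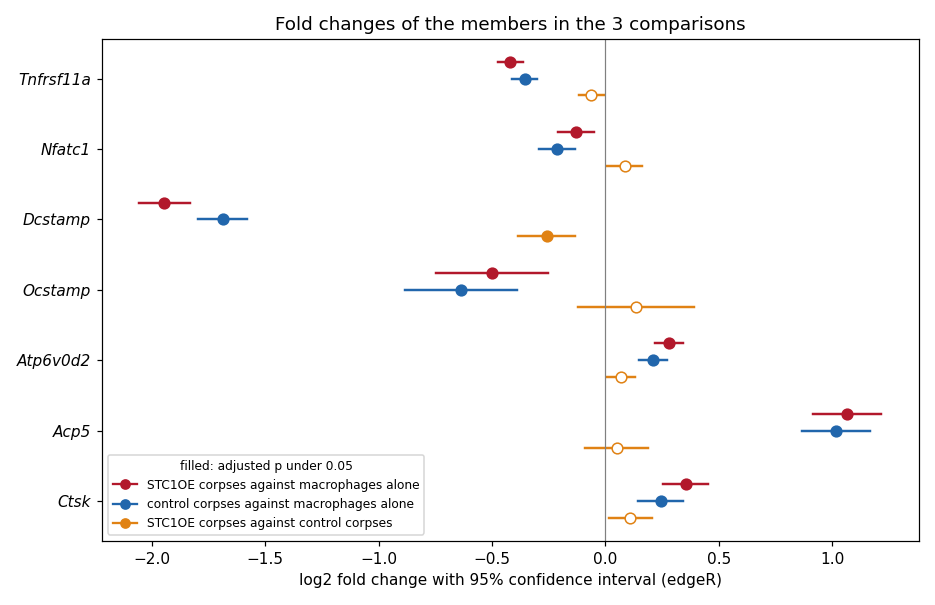
Log2 fold change of each tested member with its unadjusted 95% confidence interval in the 3 comparisons, filled where the adjusted p was under 0.05. Dcstamp at −1.94 and −1.69 and Acp5 at 1.06 and 1.02 lie farthest from 0, and Dcstamp is the single filled point between the corpse groups, at −0.26.

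RefSeq promoter windows of GRCm38.p6, from 250 bases before to 50 bases after a transcript start, were found for 5 of the 9 members: Acp5, Ctsk, Calcr, Oscar and Tnfrsf11a. Letters were searched on both strands for the NFAT core GGAAA, the AP-1 site TGANTCA, the E-boxes CATGTG and CACGTG read by MITF and TFE factors, and the PU.1 site GAGGAAG. The windows of Acp5 and Ctsk, which rose, and of Tnfrsf11a, which fell, are shown 5′ to 3′ on the strand of the gene, with every match in capitals. The Acp5 window, 1 of 3 listed for the gene, is chr9:22130549-22130848 (minus strand), the Ctsk window chr3:95498960-95499259 (plus strand) and the Tnfrsf11a window chr1:105780473-105780772 (plus strand).
Acp5: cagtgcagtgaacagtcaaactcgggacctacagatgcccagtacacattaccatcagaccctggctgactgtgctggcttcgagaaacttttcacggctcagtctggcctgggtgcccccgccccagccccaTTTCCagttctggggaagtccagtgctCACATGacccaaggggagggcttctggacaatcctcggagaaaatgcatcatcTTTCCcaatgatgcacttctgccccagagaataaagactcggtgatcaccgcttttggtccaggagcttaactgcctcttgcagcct
Ctsk: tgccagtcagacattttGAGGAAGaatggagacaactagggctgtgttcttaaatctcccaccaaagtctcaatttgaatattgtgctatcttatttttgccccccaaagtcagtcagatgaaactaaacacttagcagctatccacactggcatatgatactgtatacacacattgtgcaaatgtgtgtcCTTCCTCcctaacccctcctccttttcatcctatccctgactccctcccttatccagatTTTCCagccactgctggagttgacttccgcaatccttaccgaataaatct
Tnfrsf11a: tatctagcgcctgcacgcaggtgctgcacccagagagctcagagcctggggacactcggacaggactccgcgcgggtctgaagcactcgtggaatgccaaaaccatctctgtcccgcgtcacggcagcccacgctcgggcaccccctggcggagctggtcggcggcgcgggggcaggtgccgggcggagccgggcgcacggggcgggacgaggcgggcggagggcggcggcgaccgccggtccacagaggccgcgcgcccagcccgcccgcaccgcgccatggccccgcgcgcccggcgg
The Acp5 window shown held the reverse strand of GGAAA at −117 and −37 and that of CATGTG at −90, counted from the start at 1. Windows 2 and 3 of Acp5, not shown, each held 1 GGAAA match and none of the other motifs. The Ctsk window held GAGGAAG at −233 and its reverse strand at −59, and the reverse strand of GGAAA at 1. Those positions are counted from the RefSeq start. The annotation that gave gene coordinates starts Ctsk at 95499256, near the end of the window. The Tnfrsf11a window, with 76.7% G and C, held none of the 5 motifs. Oscar's window held 4 GGAAA matches, 1 CATGTG and 1 GAGGAAG, although the gene was near 0 counts. These letters are common: of 32851 RefSeq windows of 300 bases, 61.3% held GGAAA, 14.2% CATGTG, 13.6% GAGGAAG, 7.81% TGANTCA and 7.15% CACGTG, and a match is a description of the sequence only.

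Within groups the spread differed between members. The coefficient of variation over 4 libraries was 1.55% to 4.46% for Atp6v0d2 and 1.86% to 3.57% for Tnfrsf11a, and it was largest for Ocstamp with STC1OE corpses (17.5%) and Acp5 in macrophages alone (13.8%). Over the 12 libraries, the deviations of log2 CPM from the group means gave Pearson r = −0.82 between Atp6v0d2 and Tnfrsf11a, −0.68 between Ctsk and Tnfrsf11a, and 0.72 between Ctsk and Atp6v0d2. Nfatc1 deviated with Atp6v0d2 (0.67) and against Tnfrsf11a (−0.70). Acp5 had no r beyond 0.29 with any member. These are descriptions over 12 points that share library depth and scaling, in groups where libraries 3 and 4 were the closest pair in their counts. Libraries 1 and 2 were the next closest pair with STC1OE corpses and in macrophages alone, though not with control corpses.

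The genes most like each member in log2 CPM over the 12 libraries, group differences included, were sought among 10125 protein-coding genes of at least 2 CPM. Dcstamp was most like Clec4a2 (r = 0.998, at 32.1, 35.0 and 84.7 CPM with STC1OE corpses, control corpses and in macrophages alone), Rgs2 and Anxa1. Genes close to Acp5 included Bpnt1 (r = 0.988) and March8 (0.985). Atp6v0d2 was most like Sgk1 (0.992), Vps33a and Tbc1d13, and Ctsk like Tbc1d13 (0.957), Atp6v0d2 (0.952) and Dennd1a. Tnfrsf11a was most like Sgpp1 (0.993), Pid1 and Zranb3, Ocstamp like Pik3c3 (0.948), Rap1gds1 and Igf1r, and Nfatc1 like Mdfic (0.963), Dlgap4 and Tmbim1. Such r values were common, since 1074 genes reached 0.9 with Dcstamp and 1066 with Acp5, against 111 with Ocstamp and 55 with Nfatc1.

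Other genes of the pathway, taken from lists, moved in both directions as well. The counts of this list and of those below stand beside the shares of all genes tested. Against macrophages alone these were 21.4% higher and 22.4% lower with STC1OE corpses, and 19.7% higher and 20.5% lower with control corpses. Of 21 tested genes of RANK and M-CSF signalling, 5 rose and 9 fell with STC1OE corpses (median log2 fold change −0.09, against −0.03 over all genes tested) and 3 rose and 12 fell with control corpses (median −0.18, against 0.00). Csf1r, the M-CSF receptor, was at 1641 ± 18, 1618 ± 33 and 1942 ± 28 CPM with STC1OE corpses, control corpses and in macrophages alone, and fell by 0.24 ± 0.02 and 0.26 ± 0.02 on the log2 scale. Src, a kinase of the osteoclast's sealing zone and ruffled border, fell by 0.62 ± 0.06 and 0.64 ± 0.06. Fosl1, an AP-1 subunit, rose by 0.69 ± 0.16 and 0.67 ± 0.16, calls that replicates 1 and 2 of each group alone did not give (adjusted p = 0.221 and 0.138 by edgeR). Traf6, the adaptor of RANK, was not called, at 43.8 ± 0.51, 43.6 ± 1.6 and 42.7 ± 1.8 CPM.

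Of 13 transcription factors of osteoclasts, 3 rose and 7 fell with STC1OE corpses (median −0.17) and 2 rose and 9 fell with control corpses (median −0.25). Of all genes tested, 22.4% and 20.5% were called lower in these comparisons. Mitf, which acts with PU.1 on osteoclast genes and is also the main regulator of melanocytes, was at 109 ± 1.6, 110 ± 2.2 and 165 ± 3.0 CPM with STC1OE corpses, control corpses and in macrophages alone, and fell by 0.59 ± 0.03 in both comparisons (adjusted p = 3.16e-18 and 4.36e-18 by edgeR). Prdm1, a repressor of anti-osteoclast genes, fell by 0.52 ± 0.04 with STC1OE and 0.56 ± 0.04 with control corpses. Pparg fell by 0.63 ± 0.04 and 0.54 ± 0.04, and Jdp2, an AP-1 partner needed for osteoclast formation, rose by 0.60 ± 0.07 and 0.53 ± 0.07. Spi1, the gene of PU.1, was at 319 ± 17, 295 ± 5.6 and 333 ± 6.7 CPM; it fell with control corpses (−0.17 ± 0.03) and was not called with STC1OE corpses (−0.06 ± 0.03), and between the corpse groups it was higher with STC1OE corpses by 0.11 ± 0.03 (adjusted p = 0.0221 by edgeR). That last call was lost without control replicate 2 or 3 or STC1OE replicate 3 or 4 (adjusted p = 0.0571 to 0.121 by edgeR), with replicates 1 and 2 of each group only (0.852), in a fit of the 2 corpse groups alone (0.0505) and when tested against a 1.2-fold change.

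Of 11 inhibitors of osteoclast formation, 5 rose and 2 fell in each corpse group against macrophages alone (medians −0.03 and 0.01). Irf8, a repressor of NFATc1, rose by 0.17 ± 0.03 on the log2 scale with STC1OE corpses and by 0.13 ± 0.03 with control corpses. The helix-loop-helix inhibitors Id2 and Id1 rose as well, Id2 by 0.60 ± 0.04 and 0.53 ± 0.04, and Id1 by 0.55 ± 0.07 and 0.64 ± 0.07.

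Of 9 tested genes of ITAM costimulation, the second signal of osteoclast formation, 4 rose and 3 fell with STC1OE corpses and 2 rose and 4 fell with control corpses. The adaptor gene Lcp2 rose by 0.42 ± 0.03 and 0.40 ± 0.03 and the kinase gene Syk by 0.32 ± 0.03 and 0.23 ± 0.03, while Tyrobp fell by 0.08 ± 0.02 and 0.09 ± 0.02. The first of these Tyrobp calls was lost without STC1OE replicate 2 (adjusted p = 0.0721 by edgeR) or 4 (0.0685), and both with replicates 1 and 2 of each group alone (0.221 and 0.239). Siglec15, a receptor of this route, had 0 counts in all 12 libraries.

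Of 19 tested genes of cell fusion, 7 rose and 7 fell with STC1OE corpses and 5 rose and 9 fell with control corpses (medians −0.03 and −0.05). Ccl2, a chemokine that promotes macrophage fusion, was at 80.9 ± 7.2, 84.1 ± 13 and 28.2 ± 2.4 CPM with STC1OE corpses, control corpses and in macrophages alone. Lgals3, which encodes galectin-3, rose by 0.47 ± 0.02 and 0.38 ± 0.02 on the log2 scale. Mmp9, a gelatinase of osteoclasts and fusing macrophages, fell by 0.66 ± 0.09 and 0.67 ± 0.09.

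Of 19 genes of acid secretion and bone resorption, 10 rose and 5 fell with STC1OE corpses (median 0.15) and 9 rose and 5 fell with control corpses (median 0.06). The pump subunit gene Tcirg1 was at 845 ± 7.3, 819 ± 20 and 727 ± 21 CPM with STC1OE corpses, control corpses and in macrophages alone, and rose by 0.22 ± 0.02 and 0.17 ± 0.02. The chloride exchanger gene Clcn7 rose by 0.37 ± 0.03 and 0.26 ± 0.03, and the matrix protease gene Mmp14 by 0.59 ± 0.04 and 0.58 ± 0.04. Car2, the carbonic anhydrase that supplies protons to the pump, went the other way: it was at 0.53 ± 0.094, 0.50 ± 0.19 and 1.92 ± 0.31 CPM and fell by 1.86 ± 0.22 and 1.93 ± 0.21. Car2 lies below the level set for naming and was chosen after its values were seen.

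**Figure D4:**
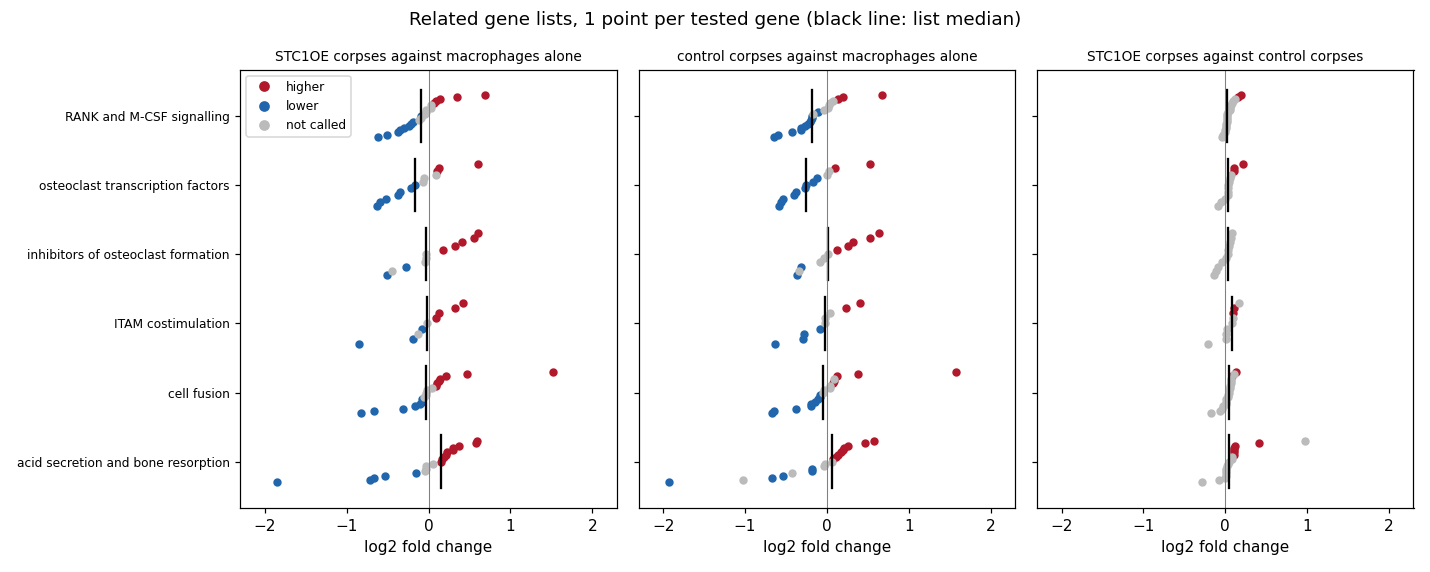
Log2 fold change of each tested gene of 6 related lists in the 3 comparisons, coloured by its call, with the list median as a black line. With either corpse, against macrophages alone, called genes lie on both sides of 0 in every list, with medians from −0.25 to 0.15; between the corpse groups the called genes of these lists lie above 0.

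Between the corpse groups few genes of these lists were called, and those called were higher with STC1OE corpses: 2 of 21 in RANK and M-CSF signalling, 3 of 13 transcription factors, 2 of 9 in ITAM costimulation, 2 of 19 in cell fusion and 6 of 19 in acid secretion and resorption, beside 3.33% of all genes tested called higher. Itgb3, the beta3 chain of the osteoclast's vitronectin receptor, had the largest fold among those called. It was at 30.3, 36.5, 34.5 and 36.9 CPM with STC1OE corpses, at 24.3, 28.4, 24.3 and 27.1 CPM with control corpses, and at 30.1, 27.8, 29.6 and 30.2 CPM in macrophages alone. The corpse groups did not overlap, and the log2 fold change between them was 0.41 ± 0.06 (adjusted p = 0.000398 by edgeR). With replicates 1 and 2 of each group only it was 0.35 (adjusted p = 0.309 by edgeR), and with replicates 3 and 4 only 0.48 (adjusted p = 3.8e-09).

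The members gave 0 calls higher and 1 lower of 7 tested between the corpse groups by edgeR, and also 0 and 1 by DESeq2, counts too small to set apart from the shares of all genes. At an unadjusted p under 0.05, 3 members were higher with STC1OE corpses (Ctsk, Atp6v0d2 and Nfatc1) and 2 lower (Dcstamp and Tnfrsf11a), beside 10.2% and 9.2% of all genes tested. With replicates 3 and 4 of each group only, edgeR called all 5 in those directions, and 7.83% of all genes higher and 3.78% lower. With replicates 1 and 2 only it called 0 members, and 0.164% of all genes higher and 0.0363% lower. The number of calls thus depended on the libraries used, for the members and for all genes, and the cause was not tested. Inhibitors of osteoclast formation gave 0 calls in either direction between the corpse groups by edgeR, with 3 higher and 1 lower at an unadjusted p under 0.05, and 1 and 1 by DESeq2.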

How the data were processed

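The authors deposited raw counts, with 1 file for each library. The submitters' processing notes name HISAT2, HTSeq and DESeq2 (no version is given) and mm10 and GRCm38 as builds, but neither the annotation release nor the use of strand. Lines that name no gene stayed out of library sizes and tests. They took 10.55% to 14.69% of reads for no feature, 5.53% to 6.62% for ambiguous, 5.17% to 5.85% for low quality, 10.81% to 17.77% for not aligned and 5.74% to 7.03% for not unique. Of 55604 identifiers, 54723 had a symbol in GENCODE on GRCm38, which also gave positions and exon lengths.

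The fit used edgeR 4.0.16 in R 4.3.3. Genes were kept by filterByExpr (minimum count 10, minimum total 15), scaled by TMM, and fitted with robust quasi-likelihood dispersion over all 12 libraries and 1 mean for each group. Tests were two-sided, and intervals of fold changes are unadjusted. The common biological coefficient of variation was 4.53%. Alternatives were RLE and upper quartile scaling, dropping the low-count filter, DESeq2 1.42.0, fits limited to the compared groups, a replicate block, a test against 1.2-fold, each library left out, and replicates 1 and 2 or 3 and 4 alone. The fit was also run on simulated counts drawn independently for each library. The outcome of that run is not reported here.

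The 9 members and the gene lists were chosen with earlier results of these data known. Besides the members, the text could name 15 set genes, the 2 called genes of largest fold per list and comparison averaging at least 2 CPM, and the 3 genes most like each member. Counts of replicate libraries were not alike within sampling noise (chi-square divided by its degrees of freedom, 2.56 to 15.3). Each was counted as 1 sample, although this excess does not show that they are independent. With STC1OE corpses, libraries 1 and 2 (3.89) and 3 and 4 (2.62) were closer than other pairs (9.95 to 15.3). In macrophages alone the same held (2.89 and 2.68, against 5.44 to 12.0). With control corpses 3 and 4 were closest (2.56), and 1 and 2 gave 6.37. Whether such pairs share a source was not tested, and p-values would rest on fewer independent samples if they do. Some of the related genes are not reported here by name.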

Additional observations from a re-analysis of the deposited data

Results flagged for a closer look

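In 141 groups of 4 libraries (47 tested genes), the highest or lowest library was set against the other three by Dixon's ratio of gap to range at its 95% critical value. Chance flags about 1 group in 20, and 10 groups passed. Of the members, Ctsk passed in macrophages alone (0.871, replicate 1 high at 27.9 CPM) and Dcstamp with control corpses (0.850, replicate 2 low at 10.2 CPM). Among related genes, Atp6v1c1 passed with STC1OE corpses (0.944), as did Tcirg1 (0.906), Clcn7 (0.869), Slc24a5 (0.849) and Traf6 (0.835). Pparg passed with control corpses (0.837), and Nfkb2 (0.916) and Tcirg1 (0.883) in macrophages alone.

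Of the same 47 tested genes, the change against macrophages alone differed between the corpse groups for 15 by edgeR. This is the comparison of the corpse groups itself, in which 5.44% of all genes tested were called. Some of the 47 were named because they were called in it, so the 15 are no measure of how often such genes differ. Dcstamp, the member among them, differed by −0.26 on the log2 scale. Of the related genes, Itgb3 differed by 0.41, Bhlhe40 by 0.22, Cd68 by 0.22, Nfkb2 by 0.19, Jun by 0.16, Dnm2 by 0.13, Atp6v0d1 by 0.12, Spi1 by 0.11, Clcn7 by 0.11, Plcg2 by 0.10, Syk by 0.095 and Lgals3 by 0.085. Sparc differed by −0.49 and Fcgr1 by −0.12.

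With 1 library left out at a time, 8 of these 14 related genes lost the call in at least 1 of 12 fits. Spi1 did so without the libraries named above, Sparc without control replicate 4 or STC1OE replicate 4, Atp6v0d1 without control replicate 1 or 3, and Clcn7 without control replicate 1 or STC1OE replicate 3. Syk lost it without control replicate 1 or 3 or STC1OE replicate 2, 3 or 4, and Plcg2 without control replicate 1, 2 or 3 or STC1OE replicate 3 or 4. Lgals3 lost it without control replicate 1 or 3 or STC1OE replicate 2 or 3, and Fcgr1 in 8 of the 12 fits, with an adjusted p up to 0.205 by edgeR. Itgb3, Bhlhe40, Cd68, Nfkb2, Jun and Dnm2 stayed called in all 12. With replicates 1 and 2 of each group only, edgeR called 0 of the 15.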

How the results depend on the processing

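The called directions of the members held under every alternative run. Tested against a 1.2-fold change, 1 member stayed called higher and 2 lower with STC1OE corpses against macrophages alone, 1 higher and 3 lower with control corpses against macrophages alone, and 0 lower with STC1OE against control corpses. Between the corpse groups, replicates 1 and 2 of each group alone gave 0 members lower, and replicates 3 and 4 alone gave 3 higher and 2 lower. With each library left out in turn, that comparison gave 0 to 2 members higher and 0 to 1 lower: Dcstamp was lost without STC1OE replicate 4, Atp6v0d2 was gained without control replicate 2, and Atp6v0d2 and Ctsk were gained without STC1OE replicate 1. STC1OE corpses against macrophages alone then gave 3 to 4 members lower. Members not called between the corpse groups changed sign with replicates 1 and 2 alone, Acp5 to −0.026, Tnfrsf11a to 0.00043 and Nfatc1 to −0.015 on the log2 scale. The cause was not tested.

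Libraries with the same replicate number did not deviate together (r of −0.0434 to 0.0912), so the numbers were not taken as pairs. The replicate block left the members at 3 higher and 4 lower with STC1OE corpses and with control corpses against macrophages alone, and at 0 higher and 1 lower between the corpse groups; over all genes it gave 677 higher and 412 lower between the corpse groups, against 546 and 347 without it.

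Over all genes, the 1.2-fold test left 903 higher and 1216 lower with STC1OE corpses, 736 and 951 with control corpses, and 2 and 2 between the corpse groups. Between the corpse groups replicates 1 and 2 alone gave 27 higher and 6 lower, replicates 3 and 4 alone 1298 and 627, and DESeq2 768 and 265. Without TMM factors, 2 of 21 group levels moved by more than 1 SD, those of Atp6v0d2 and Tnfrsf11a in macrophages alone. Leaving out libraries gave no value for Oscar and Calcr, for which depth allows no test.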

Other observations

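Atp6v1c1, which encodes a C subunit of the same proton pump as Atp6v0d2, varied within 2 of the 3 groups; it was chosen after its values were seen. It had 274, 1136, 207 and 229 counts with STC1OE corpses, 274, 243, 279 and 260 with control corpses, and 189, 358, 538 and 890 in macrophages alone. In CPM these were 6.77 to 36.8, 6.82 to 7.82 and 6.53 to 25.2, so that replicate 2 stood apart with STC1OE corpses, the control corpse libraries lay close together, and the libraries of macrophages alone were spread out. Atp6v0d2 lay within 432 to 477, 422 to 466 and 375 to 387 CPM in the same order.

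CD14, the lipopolysaccharide co-receptor of monocytes and macrophages, was the macrophage marker with the largest fold. Cd14 was at 65.4 ± 3.9, 71.8 ± 7.5 and 173 ± 5.1 CPM with STC1OE corpses, control corpses and in macrophages alone (SD, n = 4), and fell by 1.40 ± 0.07 and 1.27 ± 0.07 on the log2 scale (adjusted p = 3.12e-08 and 7.74e-08 by edgeR). Cd68, a lysosomal membrane glycoprotein, rose by 0.70 ± 0.04 and 0.48 ± 0.04 and was higher with STC1OE than with control corpses by 0.22 ± 0.04 (adjusted p = 0.00463 by edgeR), though with replicates 1 and 2 of each group alone that difference was 0.11 (adjusted p = 0.454).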
